A study of Saccharomyces cerevisiae with 18 samples.

Results

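RNA polymerase I (Pol I) is the nuclear enzyme that transcribes the ribosomal DNA, and this account follows the transcripts of 7 of its own subunits and of its initiation factor Rrn3 in budding yeast. The members are RPA190 (YOR341W), RPA135 (YPR010C), RPA49 (YNL248C), RPA43 (YOR340C), RPA34 (YJL148W), RPA14 (YDR156W), RPA12 (YJR063W) and RRN3 (YKL125W). They were chosen by systematic name, and all 8 had a row among the 5143 rows of the count table. All 8 also passed the filter on low counts.

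Pol I makes the large rRNA precursor in the nucleolus, and its output sets much of the cell's capacity to build ribosomes. Its catalytic core is formed by the 2 largest subunits, to which a TFIIF-like heterodimer, a stalk and a small cleavage subunit are added, beside subunits shared with the other nuclear polymerases. Rrn3 binds the stalk side of the free enzyme and makes it competent to start at the rDNA promoter, and it is known as a point at which growth signals control rRNA synthesis. These subunits and Rrn3 are themselves encoded by ordinary genes that RNA polymerase II (Pol II) transcribes, and it is those mRNAs that were counted.

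The comparison was between 3 wild-type (WT) and 3 ten1-31 libraries of rRNA-depleted total RNA from Saccharomyces cerevisiae. The allele ten1-31 is a temperature-sensitive mutation of TEN1, which encodes a subunit of the telomere-capping Cdc13-Stn1-Ten1 complex. Cultures of both genotypes were kept overnight at 25 °C, diluted to an OD600 near 0.2 and grown at 34 °C for nearly 5 h, to an OD600 of 0.5 to 0.6, so WT went through the same temperature shift. The labels give no strain background and do not say whether the replicates were separate cultures, so p-values measure the spread between these libraries only. The rRNA itself was depleted, and neither it nor the proteins were measured here.

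Library totals lay between 10469608 and 14442999 counts. TEN1 itself was at 8.85 ± 1.57 CPM (read counts scaled to library size and corrected between libraries by TMM) in WT and at 30.1 ± 0.630 CPM in ten1-31 (SD, n = 3 each), without overlap; a count does not show the mutation itself. TRP1, a tryptophan synthesis gene often used as a strain marker, was higher in ten1-31 by 6.24 on the log2 scale. Rows of 3 chromosomes stood apart: the median log2 fold change, ten1-31 minus WT, was 0.36 on chromosome VIII, 0.38 on IX and 0.42 on XI, against -0.09 to 0.02 on the other 13. RRN3 is the only member on any of these 3, lying on XI.

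Of the 8 members, 1 was higher and 2 were lower in ten1-31 at an adjusted p under 0.05 (edgeR quasi-likelihood test, Benjamini-Hochberg over all rows). RRN3 rose, RPA49 and RPA34 fell, and the other 5 did not pass. Among all 5133 rows tested, 50.5% passed, 24.3% higher and 26.2% lower, so the members' count of 3 was no larger than the background. For the same 3 members every library of one genotype lay beyond every library of the other, which was so for 60.5% of all rows, 29.0% with ten1-31 higher and 31.6% with it lower. The median log2 fold change of the 7 subunits was -0.18, with 6 of 7 negative, against a median of 0.00 over all rows, of which 50.4% were negative.

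**Figure D1:**
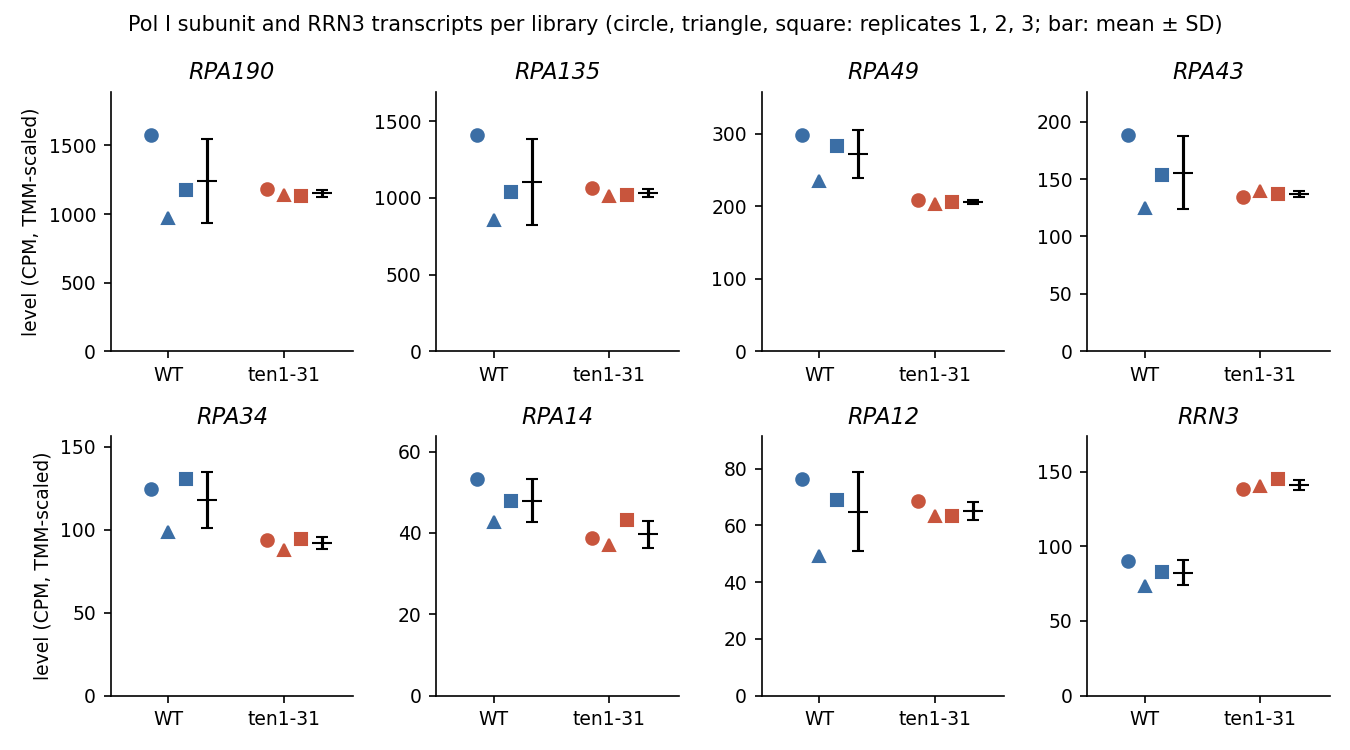
Level of each member in CPM (vertical axis, from 0) in the 3 WT (blue) and 3 ten1-31 (red) libraries; marker shapes give the replicate and bars the mean ± SD. RRN3 is higher and RPA49 and RPA34 are lower in every ten1-31 library than in any WT library, and the WT libraries spread more widely than the ten1-31 libraries for all 8 genes.

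The catalytic core was examined first. RPA190 encodes the largest subunit, which carries most of the active site, and lies on chromosome XV (R64, bases 960987 to 965981, forward strand). It was at 1574, 974 and 1175 CPM in WT replicates 1, 2 and 3 and at 1181, 1141 and 1132 CPM in ten1-31 replicates 1, 2 and 3. WT replicate 1 was above and WT replicate 2 below every ten1-31 library, so the genotypes overlapped. The log2 fold change was -0.11, with a 95% interval of -0.48 to 0.26 (edgeR, adjusted p = 0.596), so neither a moderate fall nor a small rise could be told from no change.

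RPA135, the second-largest subunit, which completes the catalytic cleft, lies on chromosome XVI (R64, bases 577585 to 581196, reverse strand). Its levels were 1408, 858 and 1041 CPM in WT and 1065, 1015 and 1019 CPM in ten1-31, in replicate order. The picture was that of RPA190, with WT replicates 1 and 2 on either side of the mutant. Its log2 fold change was -0.09, with a 95% interval of -0.47 to 0.28 (edgeR, adjusted p = 0.654). Without WT replicate 1 the direction turned for both genes, to 0.10 for RPA190 and 0.12 for RPA135, neither past the threshold (edgeR, adjusted p = 0.369 and 0.292).

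RPA49 and RPA34 encode the heterodimer that is related to the Pol II factor TFIIF and that aids initiation and elongation by Pol I. RPA49 lies on chromosome XIV (R64, bases 181361 to 182608, reverse strand). It was at 298, 235 and 282 CPM in WT and at 208, 204 and 206 CPM in ten1-31. All ten1-31 libraries lay below the lowest WT library, and they were close to each other. RPA49 fell by 0.40 ± 0.10 on the log2 scale (SE; edgeR, adjusted p = 0.0101), to 0.758 of the WT level. The call held in each of the 6 fits that left out a library, with adjusted p-values up to 0.0486.

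RPA34 lies on chromosome X (R64, bases 140437 to 141138, forward strand). Its levels were 124, 98.6 and 130.2 CPM in WT and 93.7, 87.9 and 94.2 CPM in ten1-31. The groups did not overlap, although WT replicate 2 was only slightly above the highest mutant library. RPA34 fell by 0.36 ± 0.11 on the log2 scale (SE; edgeR, adjusted p = 0.0273). This call was fragile. It was lost when WT replicate 1, WT replicate 3 or any one of the ten1-31 libraries was left out, with adjusted p-values from 0.0532 to 0.107, and also when libraries were scaled by their totals alone (edgeR, adjusted p = 0.0602). It held without WT replicate 2, at -0.47 (edgeR, adjusted p = 0.00199).

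The stalk is formed by the products of RPA43, which contacts Rrn3, and RPA14. RPA43 lies on chromosome XV (R64, bases 959202 to 960182, reverse strand), head to head with RPA190 and with 804 bases between their coding regions. It was at 188, 125 and 154 CPM in WT and at 134, 139 and 137 CPM in ten1-31. WT replicate 2 was below all ten1-31 libraries and the other WT libraries were above them. The log2 fold change was -0.18, with a 95% interval of -0.50 to 0.13 (edgeR, adjusted p = 0.288). Without WT replicate 2 it was -0.32 and passed (edgeR, adjusted p = 0.0279), and without WT replicate 1 it was -0.025.

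RPA14 lies on chromosome IV (R64, bases 769525 to 769938, forward strand) and had the fewest counts of the members. Its levels were 53.2, 42.6 and 47.9 CPM in WT and 38.8, 36.9 and 43.3 CPM in ten1-31. The groups overlapped by a single pair, ten1-31 replicate 3 being above WT replicate 2. RPA14 stood at -0.27 ± 0.10 on the log2 scale (SE; edgeR, adjusted p = 0.0601), just short of the threshold. It passed without WT replicate 2, at -0.35 (edgeR, adjusted p = 0.0221), and without ten1-31 replicate 3, also at -0.35 (edgeR, adjusted p = 0.0485). The 3' end of RPA14 overlaps the open reading frame YDR157W by 8 bases on the same strand in RefSeq, and that frame had no row here.

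RPA12 encodes the small zinc-ribbon subunit that supports RNA cleavage and is related to Rpb9 and TFIIS of the Pol II system. It lies on chromosome X (R64, bases 555195 to 555572, forward strand). It was at 76.2, 49.3 and 68.8 CPM in WT and at 68.6, 63.3 and 63.3 CPM in ten1-31. The mutant libraries fell inside the WT range, and the means were 64.8 ± 13.9 and 65.1 ± 3.07 CPM (SD, n = 3 each). The log2 fold change was 0.01, with a 95% interval of -0.34 to 0.35 (edgeR, adjusted p = 0.980).

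RRN3, the initiation factor, was the only member that rose. It lies on chromosome XI (R64, bases 208247 to 210130, forward strand). Its raw counts were 1239, 849 and 1082 in WT and 1771, 1514 and 2033 in ten1-31. On the CPM scale it was at 90.5, 73.7 and 82.6 in WT and at 138, 140.5 and 145 in ten1-31. Every mutant library was far above every WT library, and the mutant libraries were close together. The means of 82.3 ± 8.40 and 141 ± 3.24 CPM (SD, n = 3 each) differed by 0.78 ± 0.09 on the log2 scale (SE; edgeR, adjusted p = 0.000386), so that the mutant was at 1.72 times WT. The value stayed between 0.71 and 0.85 in the 6 fits that each left out a library, and it passed in all of them.

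Chromosome XI as a whole was higher in ten1-31. The median log2 fold change of its other 285 rows was 0.42, and 191 of them (67%) were called higher against 13 called lower. The median was 0.42 on the left arm, which holds RRN3, and 0.41 on the right arm. The difference appeared in every library: the median deviation of chromosome XI rows from the 6-library mean was -0.25, -0.20 and -0.21 in the WT libraries and 0.18, 0.22 and 0.25 in the ten1-31 libraries, on the log2 CPM scale. Both neighbours of RRN3 rose too. YPK1, a protein kinase gene 497 bases away, had a log2 fold change of 0.58 (edgeR, adjusted p = 0.00100), and SSH4, 462 bases away on the other side, had one of 0.65 (edgeR, adjusted p = 0.00928). Among the 10 rows nearest to RRN3 the median log2 fold change was 0.60, and 7 were called higher and 2 lower.

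Of the 285 other rows of chromosome XI, 51 had a log2 fold change above that of RRN3, and the third quartile of the 285 was 0.67. The log2 CPM of RRN3 minus the median of the 285 rows was 0.19, -0.15 and 0.04 in the WT libraries. In the ten1-31 libraries it was 0.44, 0.46 and 0.48, without overlap. The share of chromosome XI rows without overlap on this scale is not given here. When each row was scaled on the rows of its own chromosome, a setting chosen after the chromosome medians were seen, RRN3 was higher by 0.32 ± 0.09 on the log2 scale (SE; edgeR, adjusted p = 0.0210) in place of 0.78. Under that scaling 48.9% of all rows were called. The call was then lost when any one of the ten1-31 libraries was left out (edgeR, adjusted p = 0.0574 to 0.0725), while the value stayed between 0.24 and 0.42. The part of the chromosome-wide difference in the rise of RRN3 was not tested beyond this scaling, and DNA copy number was not analysed here. The same holds for the genes of other lists on chromosomes VIII, IX and XI named further on.

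The 7 subunit genes lie on chromosomes IV, X, XIV, XV and XVI, whose medians were between -0.08 and -0.03. Scaling within chromosomes moved each of them upward by less than 0.1, RPA49 to -0.34 (edgeR, adjusted p = 0.0157) and RPA34 to -0.31 (edgeR, adjusted p = 0.0380), both still called. For the others this was a large part of the value. RPA14 went from -0.27 to -0.18 (edgeR, adjusted p = 0.203), RPA43 from -0.18 to -0.12, RPA190 from -0.11 to -0.045, RPA135 from -0.09 to -0.047 and RPA12 from 0.01 to 0.05, none of them called. In that setting the call of RPA49 was lost when WT replicate 3 or either of ten1-31 replicates 1 and 2 was left out (edgeR, adjusted p = 0.0530 to 0.0684). RPA34 kept its call there only when WT replicate 2 was the library left out (edgeR, adjusted p = 0.0579 to 0.149 in the other left-out fits). The surroundings of RPA135 differed from its chromosome, since the median over its 10 nearest rows was 0.51 on the log2 scale, with 5 called higher and 1 lower, while RPA135 itself was at -0.09.

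**Figure D2:**
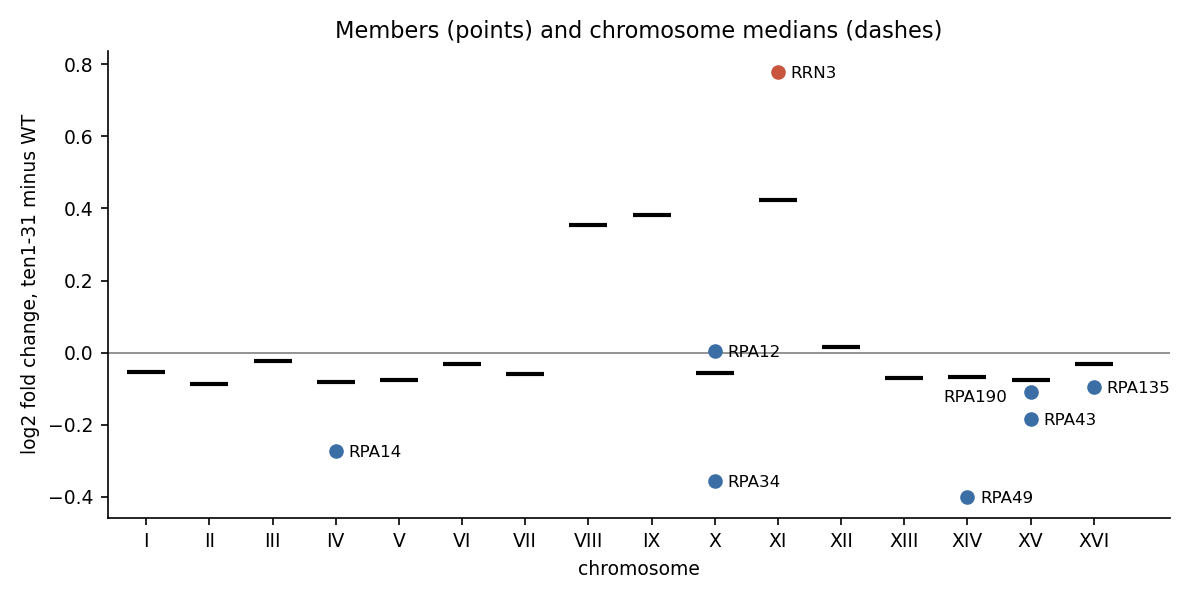
Log2 fold change, ten1-31 minus WT (vertical axis), of each member (points; RRN3 in red) above its chromosome (horizontal axis), with the median over all rows of each chromosome (dashes). Chromosomes VIII, IX and XI have medians of 0.36, 0.38 and 0.42; RRN3 at 0.78 is on XI and no subunit gene is on any of the 3.

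**Figure D3:**
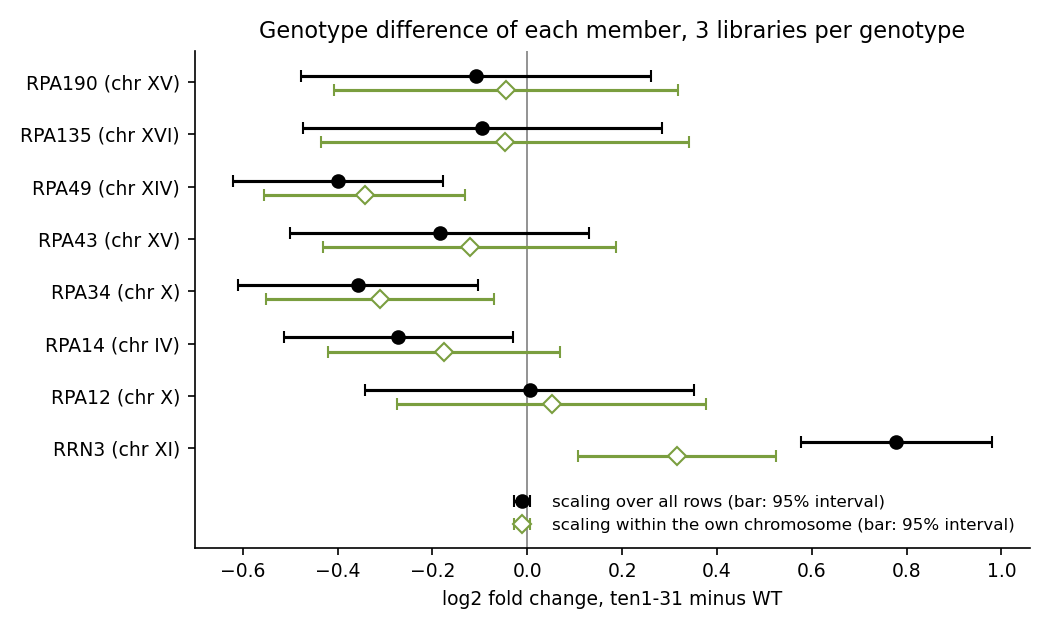
Log2 fold change of each member (horizontal axis) with its 95% interval, scaled over all rows (black circles) or within the member's own chromosome (green diamonds). RRN3 moves from 0.78 to 0.32 and each of the 7 subunits moves by less than 0.1.

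The rise of RRN3 against the enzyme it activates needs no scaling factor, because it can be read as a count ratio within a library. The log2 ratio of RRN3 to RPA43, its contact in the stalk, was -1.06, -0.76 and -0.89 in the WT libraries and 0.05, 0.01 and 0.08 in the ten1-31 libraries. The ratios to RPA190 and RPA135 likewise did not overlap between genotypes. They rose by 0.95, 0.86 and 0.85 on the log2 scale for RPA43, RPA190 and RPA135, each with a two-sided exact permutation p of 0.1, the smallest that 3 against 3 libraries allow. These ratios were chosen after the values were seen, and they still contain the shift of chromosome XI.

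Levels were compared between members per kilobase of coding length, on the TMM-scaled CPM scale. In WT the order was RPA135 at 305 ± 77.6, RPA190 at 248 ± 61.1, RPA49 at 218 ± 26.4, RPA12 at 171 ± 36.7, RPA34 at 168 ± 23.9, RPA43 at 158 ± 32.4, RPA14 at 116 ± 12.7 and RRN3 at 43.7 ± 4.46 CPM per kilobase (SD, n = 3 each). The ranges of neighbours in this order overlapped, except between RPA14 and RRN3. Within libraries the order RPA135, RPA190, RPA49, RPA12 held in 3 of 3 WT libraries, whereas RPA12 exceeded RPA34 in only 1 of 3 and RPA34 exceeded RPA43 in 2 of 3.

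In ten1-31 the levels were 286 ± 7.63 for RPA135, 231 ± 5.26 for RPA190, 172 ± 8.13 for RPA12, 165 ± 1.81 for RPA49, 139.5 ± 2.68 for RPA43, 131 ± 5.01 for RPA34, 95.8 ± 7.90 for RPA14 and 74.9 ± 1.72 CPM per kilobase for RRN3 (SD, n = 3 each). No neighbours in this order overlapped. RRN3 stayed the lowest member in both genotypes. The transcripts of subunits that stand in equal number in the enzyme thus spanned a range from 116 to 305 CPM per kilobase in WT. Differences in coverage along transcripts between genes are not removed by dividing by length.

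RPA190 and RPA135 had the widest spread of the members between WT libraries, with SDs of log2 CPM of 0.35 and 0.36, yet their ratio was steady. The RPA190 count divided by the RPA135 count was 1.12, 1.13 and 1.13 in the WT libraries and 1.11, 1.12 and 1.11 in the ten1-31 libraries. The SD of the log2 ratio over the 6 libraries was 0.01, below the 0.02 that counting alone would give. Among 4949 other rows with a mean of at least 10 CPM, RPA135 was the row with the steadiest ratio to RPA190, and RPA190 the row with the steadiest ratio to RPA135. The median row had an SD of 0.31 against RPA190. High counts favour such a rank, since they lower the counting error.

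The other structural partners were less tightly matched. RPA49 and RPA34 had the second-smallest SD of the 28 pairs of members, 0.06 against 0.05 from counting. Seen from RPA49, RPA34 ranked 48 of 4949 rows, and from RPA34, RPA49 ranked 20. The stalk pair RPA43 and RPA14 ranked 9 of the 28, with an SD of 0.13 against 0.07 from counting. RPA43 followed RPA190, its head-to-head neighbour, more closely, with an SD of 0.07, and likewise RPA135, on another chromosome, with 0.08. Seen from RPA43, RPA190 ranked 35 of 4949 rows. The 7 pairs with RRN3 had the widest ratios, with SDs from 0.43 to 0.65.

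**Figure D4:**
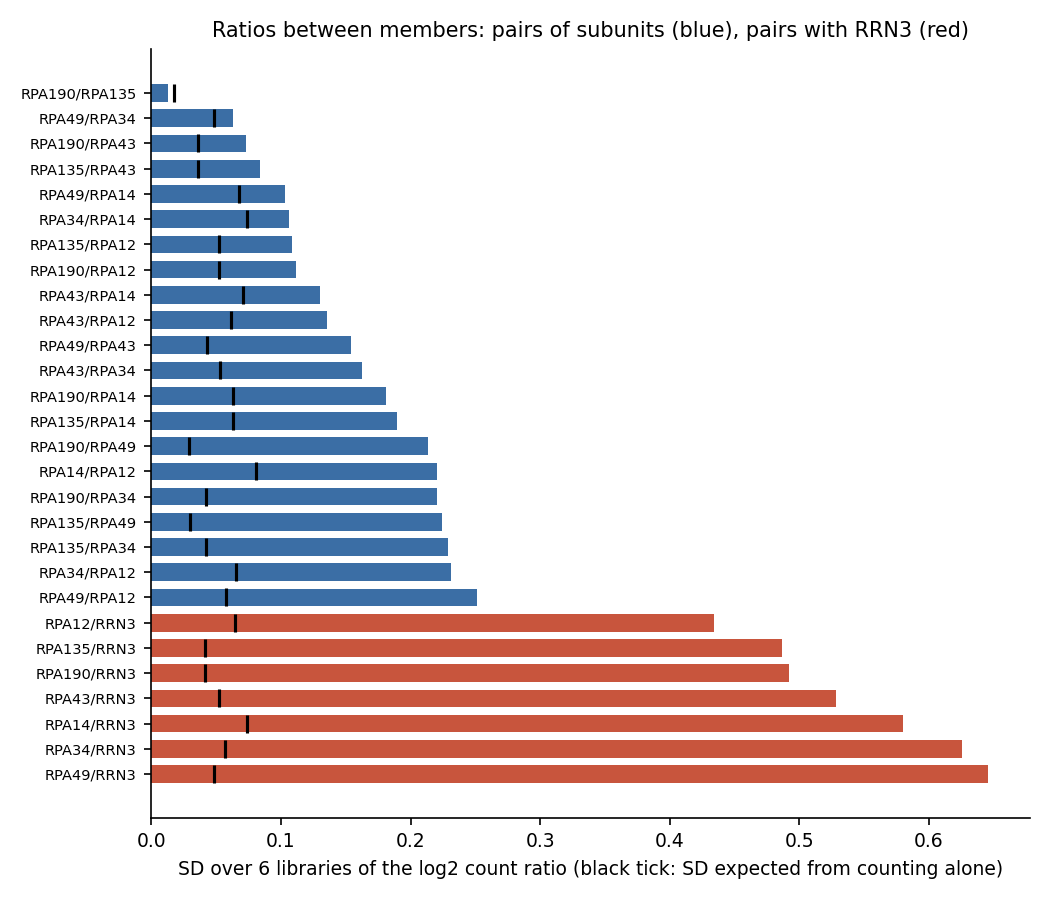
SD over the 6 libraries of the log2 count ratio for each of the 28 pairs of members (bars; blue, both subunits; red, with RRN3), with the SD expected from counting alone (black ticks). RPA190/RPA135 is the steadiest, at 0.01, and RPA49/RRN3 the widest, at 0.65.

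The spread among WT libraries was itself shared by the members. WT replicate 2 was the lowest WT library for all 8 members, compared with 34.2% of all rows, and WT replicate 1 was the highest as well for 7 of the 8, RPA34 being the exception, compared with 24.9% of all rows. The SD of log2 CPM was larger in WT than in ten1-31 for 8 of 8 members and for 74.1% of all rows. For RPA190 it was 0.35 in WT and 0.03 in ten1-31. The median deviation of the 7 subunits from the 6-library mean was 0.34, -0.22 and 0.10 in the WT libraries and -0.11, -0.06 and -0.06 in the ten1-31 libraries, on the log2 scale, so the mutant lay inside the WT range.

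A list of 20 genes for rRNA modification and processing, of which 19 were tested, had medians of 0.33, -0.29 and 0.05 in the WT libraries and of -0.01, -0.07 and -0.04 in the ten1-31 libraries. General stress genes ran the other way among WT libraries, with medians of -0.90, 0.09 and -0.41 in WT and of 0.42, 0.48 and 0.41 in ten1-31 over 14 genes. The part of this difference among WT libraries in the results of the subunit genes was not tested beyond leaving each library out.

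**Figure D5:**
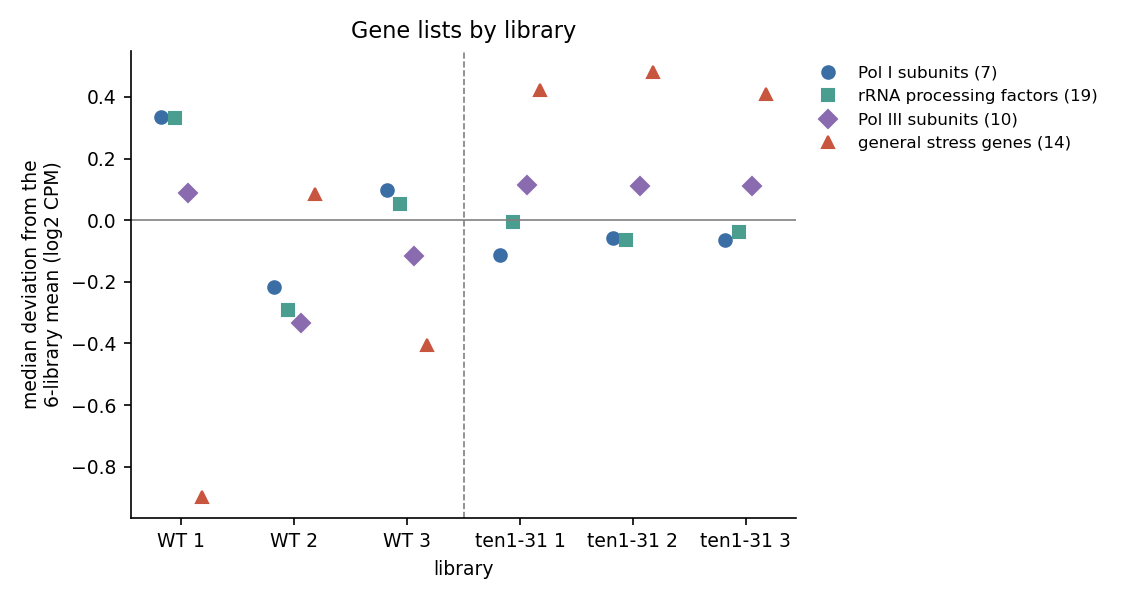
Median deviation from the 6-library mean on the log2 CPM scale (vertical axis) of 4 gene lists in each library (horizontal axis); the number of genes is in the key and the dashed line parts the genotypes. Pol I subunits and rRNA processing factors are highest in WT replicate 1 and lowest in WT replicate 2, where the general stress genes are lowest and highest among WT libraries.

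The 5 rows most like the members, by the Pearson correlation over the 6 libraries with the mean centred log2 CPM of the 8 members among 4942 rows of at least 10 CPM, were DBP3 (r = 0.995), SYO1 (0.993), NOP13 (0.992), UTP4 (0.990) and NOP4 (0.990). None of them was called between genotypes (edgeR, adjusted p = 0.474 to 0.700), so the likeness rests mainly on the spread among the WT libraries. All points share the same 6 libraries and scaling factors.

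Pol I takes further subunits from pools shared with the other polymerases. RPC40, which forms a heterodimer with RPC19 in Pol I and Pol III, fell from 271 ± 33.5 to 210.5 ± 9.07 CPM (SD, n = 3 each), which is -0.36 on the log2 scale (edgeR, adjusted p = 0.0176). RPC19 was at -0.09 and did not pass (edgeR, adjusted p = 0.445). The call of RPC40 was lost in 3 of the 6 fits with a library left out, in which WT replicate 3 or either of ten1-31 replicates 2 and 3 was missing, with adjusted p-values up to 0.0752. Of the 5 subunits common to all 3 polymerases, RPB5 and RPO26 fell, at -0.31 and -0.32 (edgeR, adjusted p = 0.0130 and 0.0175), RPC10 rose, and RPB8 and RPB10 did not pass. The share called was 60% of these 5 and 50% of RPC40 and RPC19, near the 50.5% of all rows. RPB5 lost its call without ten1-31 replicate 2, and RPO26 lost it when WT replicate 3 or either of ten1-31 replicates 1 and 2 was left out. RPC10, at 0.70 (edgeR, adjusted p = 0.0109), lies on chromosome VIII. Its ten1-31 libraries were uneven, with a mean of 92.2 ± 21.6 CPM, where WT was at 56.6 ± 4.88 CPM (SD, n = 3 each), as were chromosome VIII rows, whose median deviation was 0.44, 0.27 and -0.18 in the ten1-31 libraries. Scaled within its chromosome RPC10 was at 0.33 (edgeR, adjusted p = 0.0169).

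Factors that bring Pol I to the rDNA promoter were examined next. Of 8 listed, 7 were tested; 4 were called lower, 0 higher and 3 did not pass, with a median log2 fold change of -0.35, against a median of 0.00 over all rows. The share called, all of it lower, was 57.1%, against 26.2% of all rows called lower and 50.5% in either direction. RRN9, of the upstream activation factor that marks the promoter, fell from 50.3 ± 2.34 to 33.9 ± 0.249 CPM (SD, n = 3 each), which is -0.57 on the log2 scale (edgeR, adjusted p = 0.000564). UAF30, of the same complex, fell by 0.63 on the log2 scale (edgeR, adjusted p = 0.00199). RRN10, which belongs there too, and SPT15, the TATA-binding protein gene that serves all 3 polymerases, also fell, by 0.49 and 0.35 (edgeR, adjusted p = 0.0168 and 0.00297). The call of RRN10 was lost without WT replicate 3 or ten1-31 replicate 1, and those of the other 3 held with each library left out. The core factor genes, which encode the complex that meets Rrn3 at the promoter, did not pass: RRN6 was at -0.06, RRN7 at 0.16 and RRN11 at -0.17 (edgeR, adjusted p = 0.636, 0.215 and 0.0961). RRN7 was called higher without WT replicate 1, and RRN11 lower with upper quartile scaling. RRN5 was not analysed here. Scaled within chromosomes, the median of the 7 was -0.25 and the count called lower was again 4.

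Among 6 proteins that bind or organise the rDNA, 3 were called lower and 0 higher, with a median of -0.30 against 0.00 over all rows. The share called, 50%, was next to the 50.5% of all rows called in either direction. All of these calls were lower, where 26.2% of all rows were called lower. The 3 were REB1, a DNA-binding factor (-0.55; edgeR, adjusted p = 0.000659), FOB1, which blocks replication forks in the rDNA (-0.54; edgeR, adjusted p = 0.00279), and HMO1, a high mobility group protein that coats active rDNA (-0.38; edgeR, adjusted p = 0.00632). NET1, a nucleolar protein that stimulates Pol I, was at 0.26 (edgeR, adjusted p = 0.0794). It passed in other settings, among them scaling within its chromosome, at 0.30 (edgeR, adjusted p = 0.0374), scaling by library totals alone, at 0.34 (edgeR, adjusted p = 0.0198), and leaving out WT replicate 1, at 0.37 (edgeR, adjusted p = 0.00451).

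In the rRNA modification and processing list 5 of 19 genes were called lower and 0 higher, with a median of -0.11. That is 26.3% called lower, next to 26.2% of all rows, so the count called lower was at the background. The count called higher was 0, where 24.3% of all rows were. The share called in either direction was thus below the 50.5% of all rows. NOP56, a core protein of box C/D snoRNPs, fell by 0.68 on the log2 scale and IMP4, of the small subunit processome, by 0.66 (edgeR, adjusted p = 0.00116 and 0.00134). Both held with each library left out, but the count did not. It was 10 lower without WT replicate 2, 2 lower without WT replicate 3 or ten1-31 replicate 2, and 3 lower without ten1-31 replicate 1. Without ten1-31 replicate 3 it was 3 lower and 1 higher, NOP10. NOP10 lies on chromosome VIII and, with all libraries, was at -0.06 when scaled within it (edgeR, adjusted p = 0.594). Without WT replicate 1 the median of the list was 0.032, with 4 called lower and 3, ENP1, HCA4 and RRP5, called higher. Of 7 listed regulators of ribosome biogenesis genes 4 were tested. DOT6, a repressor of such genes, fell (-0.39; edgeR, adjusted p = 0.00503), and the kinase gene SCH9, on chromosome VIII, rose (0.62; edgeR, adjusted p = 0.0230) but did not pass when scaled within its chromosome, at 0.25, or when WT replicate 2 or 3 or ten1-31 replicate 1 or 2 was left out. In the list of general stress genes 8 of 14 were called higher, where 24.3% of all rows were, and 1, the glycerol synthesis gene GPD1, was called lower. The smallest p-values among them were those of GSY2, of glycogen synthesis, at 1.01, and the chaperone gene HSP26, at 2.02 (edgeR, adjusted p = 0.00153 and 0.00230). The count called higher was 13 without WT replicate 2 and 5 without WT replicate 3 or without ten1-31 replicate 2.

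Pol I subunits have counterparts in the other polymerases. Of the 7 subunits specific to Pol II, 1 was called higher and 3 lower, with a median log2 fold change of -0.19. The share called, 57.1%, was near the 50.5% of all rows. RPO21, which encodes Rpb1, the counterpart of RPA190, rose by 0.51 (edgeR, adjusted p = 0.00334). RPB4 and RPB9, the counterparts of RPA14 and in part of RPA12, fell by 0.52 and 0.42 on the log2 scale (edgeR, adjusted p = 0.00100 and 0.00218). RPB7, the counterpart of RPA43, was called lower at -0.29 (edgeR, adjusted p = 0.0224), but lost its call when any one of the ten1-31 libraries was left out and when scaled within its chromosome (edgeR, adjusted p = 0.0981). RPB3, on IX, was at 0.01 and fell by 0.39 when scaled within its chromosome (edgeR, adjusted p = 0.00241). Of 10 subunits specific to Pol III, 3 were called higher and 0 lower, with a median of 0.21. The share called was 30%, against 24.3% of all rows called higher and 50.5% in either direction. They were RPC37, RPC25 and RPC82, at 0.51, 0.39 and 0.46 (edgeR, adjusted p = 0.00453, 0.00596 and 0.0116). RPC37 and RPC25 lie on chromosome XI, as RRN3 does, and were at 0.05 and -0.08 when scaled within it (edgeR, adjusted p = 0.740 and 0.422), whereas RPC82, on XVI, was at 0.51. In that setting RPC34, on XIV, and RPC11, on IV, passed instead, at 0.38 and 0.26 (edgeR, adjusted p = 0.0249 and 0.0332). With all rows scaled together, RPC82 lost its call without WT replicate 3 or ten1-31 replicate 2, so that 2 were called, while 7 were called without WT replicate 1 and 5 with library totals alone as the scaling.

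Count ratios within libraries compared the largest subunits directly. The log2 ratio of RPA190 to RPO21 was 1.10, 0.72 and 0.96 in the WT libraries and 0.38, 0.31 and 0.30 in the ten1-31 libraries. All WT libraries lay above all mutant libraries, and the mean fell by 0.60. In this ratio RPO21 was called higher, at 0.51, while RPA190 was at -0.11 and not called. The ratio of RPA190 to RPO31, the largest subunit gene of Pol III, fell by 0.22, and that of RPA135 to the Pol III gene RET1 by 0.34, also without overlap. For each of these 3 ratios the two-sided exact permutation p was 0.1, the smallest possible with 3 against 3, and 0.133 adjusted over the 4 ratios compared. The ratio of RPA135 to its Pol II counterpart RPB2 overlapped between genotypes, with a difference of -0.12 (exact permutation p = 0.7), and turned to 0.051 without WT replicate 1. RPO21, RPB2, RPO31 and RET1 lie on chromosomes IV and XV, outside those that stood apart.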

How the data were processed

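The authors deposited a table of read counts per gene with one column per library; the unit was read from the values, whole numbers with unequal totals. Per the submitters' processing notes, FastQC, cutadapt, Trimmomatic, TopHat2, Bowtie2 and featureCounts and the builds R64 and sacCer3 were used, with roles not given. A strand-specific kit was used per the labels' protocols; which strand setting, gene annotation or filter on rows went into the counting is not given in the sources used here, so overlapping genes are uncertain. The 12 ChIP-seq libraries were not analysed here.

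Counts were compared with edgeR 4.0.16 (R 4.3.3; TMM, filterByExpr with minimum count 10 and minimum total 15, quasi-likelihood test, genotype as the only term), which kept 5133 of 5143 rows; p-values were adjusted by Benjamini-Hochberg over them, with a threshold of 0.05. SE is the log2 fold change divided by the root of F, and 95% intervals use the moderated degrees of freedom. Deviations used log2 CPM with prior count 2. Positions, symbols and coding lengths came from the RefSeq gene table of R64, which matched 5104 rows; 8 rows whose name stands on 2 rows were left unnamed. The procedure was tested on simulated counts. Replicate libraries differed by more than counting noise, with chi-square per degree of freedom of at least 5.33. At these depths the lowest member count was 398, and the number of libraries limits precision more than counting does.

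Members, lists and tests were chosen with earlier results of these data known. Named genes were all members and, of each list, the 2 with the smallest p-values, up to 3 called against a list's majority and the counterparts used in ratios; RPO26, RPB8, RPB10, SPT15, RRN10, the core factor genes, HMO1, NET1, NOP10, ENP1, HCA4, RRP5, RPB7, RPC82, RPC34, RPC11, RPB3, YPK1, SSH4 and TRP1 were named in addition, after their values were seen. Alternatives were other scalings and filters, DESeq2 1.42.0, limma-voom (limma 3.58.1), a replicate block, a stricter threshold, leaving out each library, and scaling within chromosomes.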

Additional observations from a re-analysis of the deposited data

How the results depend on the processing

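RRN3 was called higher in each alternative run except scaling within chromosomes without ten1-31 replicate 1, 2 or 3 (0.303, 0.323 and 0.323 on the log2 scale). In that scaling the call was lost for RPA49 without WT replicate 3 (-0.304) and ten1-31 replicates 1 and 2 (-0.353 and -0.334), and for RPA34 without WT replicates 1 and 3 (-0.27 and -0.23) and ten1-31 replicates 1, 2 and 3 (-0.32, -0.28 and -0.331). Over the fits that left out 1 library, scaled together or within chromosomes, the log2 fold change of RRN3 ran from 0.24 to 0.85. That of RPA49 ran from -0.49 to -0.28 and that of RPA34 from -0.47 to -0.23. For the other members only the left-out fits with all rows scaled together are given. There RPA43 ran from -0.32 to -0.025, RPA14 from -0.35 to -0.19 and RPA190 from -0.26 to 0.10. RPA135 ran from -0.25 to 0.12 and RPA12 from -0.16 to 0.14. Also with all rows scaled together, the number of members called ran from 2 to 5 in these fits, and those called lower from 1 to 4. The rows called ran from 1824 to 2974, and the log2 ratio RPA135/RPB2 from -0.25 to 0.051. Scaled within chromosomes, RRN3, RPA49 and RPA34 all lost their calls without ten1-31 replicate 1 or 2. With library size only, RPA34 lost its call (-0.28) and 1 member was called lower. With upper quartile scaling RPA14 was called (-0.32) and RPA12 changed sign (-0.042). At an adjusted p of 0.01, 1 member (RRN3, 0 lower) and 1660 rows were called. The median of the rRNA processing list was 0.032 without WT replicate 1; the cause was not tested.

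Nothing in the labels ties same-numbered libraries together, so pairing was not assumed. Their deviations correlated at 0.20, 0.21 and 0.09, each above the values for differently numbered libraries, which ran from -0.23 to 0.05. Whether same-numbered libraries belong together was not tested. Adding a replicate block gave 2630 called rows, of which 2475 were also called otherwise. RPA14 was called at -0.27 (edgeR, adjusted p = 0.0433) and no other member call changed, while NET1 was called at 0.26 (edgeR, adjusted p = 0.0367). The mean differences of the 4 count ratios are the same with and without the block by construction, so their direction could not change. Their exact permutation p under the block was 0.25 at the least, the smallest 3 pairs allow. The search for promoter motifs was not run, since no sequence was used here. Scaling is relative, so a change common to all transcripts would not be seen.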
